A study of Mus musculus with 6 samples.

Results

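Translation initiation and elongation factors are the proteins that load ribosomes onto mRNA and move them along it. Their genes were taken from the count table by symbol, as the rows that begin with Eif1 to Eif6, Eef1 or Eef2, without pseudogene rows and without *Eif2s3x*, the Y-linked copy of that gene and *Eef1e1*. This gave 69 of the 20654 genes in the table: 9 of the eIF1 group, 13 of eIF2 with its exchange factor eIF2B and its kinases, 14 of eIF3, 16 of eIF4, 4 of eIF5, 1 of eIF6, 9 of eEF1 and 3 of eEF2. *Eef1a2* was not analysed here. The RNA came from muscle satellite cells (MuSCs), the stem cells of skeletal muscle, which had been sorted from C57BL/6 mice, and the study asked how MuSCs change when they lack the mechanosensitive ion channel PIEZO1. Of the 6 libraries, 3 were controls, labelled wild type and described in the methods as *Piezo1*+/+; *Pax7*CreERT2/+, and 3 were labelled *Piezo1* cKO, from *Piezo1*flox/flox; *Pax7*CreERT2/+ mice in which tamoxifen activates Cre only in cells that express *Pax7*. Both groups were cultured for 3 days in growth medium on Matrigel with 1 µM 4-OH TMX, the active form of tamoxifen. By the methods, the controls thus carried the same Cre allele and the cells of both groups met the same drug. The methods also state that mice for ex vivo studies received daily tamoxifen injections, before their cells were isolated. The age and sex of these mice are not given in the sources used here.

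Initiation begins when eIF2 brings the initiator tRNA to the small ribosomal subunit, which also carries eIF1, eIF1A, eIF3 and eIF5. The eIF4 proteins bind the cap of the mRNA, unwind its leader and bring it to this complex, and the 4E-BP proteins hold the cap-binding protein eIF4E back until mTORC1 phosphorylates them. In elongation, eEF1A delivers each aminoacyl-tRNA, the eEF1B subunits recharge eEF1A with GTP, and eEF2 moves the ribosome on by a codon. In MuSCs, phosphorylation of the alpha subunit of eIF2 is known as part of what keeps the quiescent cell's protein synthesis low, and activated cells raise their protein synthesis as they grow.

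The stretches of promoter below are shown for genes of the cap-binding, scaffold and elongation steps whose levels are described later, and were chosen because they hold a motif. They cover positions -80 to -1 from the transcription start, except that of *Eif4a1*, which covers -226 to -147, where its E-box lies. Sequences are those of RefSeq on GRCm38.p6, read on the strand of the gene, and capitals mark the motifs CACGTG (the E-box) and GGGCGG (the GC box) where they occur.
*Eif4ebp2*, chr10:61452670-61452749, minus strand: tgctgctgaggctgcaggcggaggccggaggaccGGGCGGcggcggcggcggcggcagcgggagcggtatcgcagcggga
*Eif3a*, chr19:60790694-60790773, minus strand: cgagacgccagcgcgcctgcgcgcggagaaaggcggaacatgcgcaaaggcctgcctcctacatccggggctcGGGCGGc
*Eif4a1*, chr11:69672570-69672649, minus strand: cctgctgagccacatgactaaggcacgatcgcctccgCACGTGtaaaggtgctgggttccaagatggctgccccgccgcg
*Eef2*, chr10:81176551-81176630, plus strand: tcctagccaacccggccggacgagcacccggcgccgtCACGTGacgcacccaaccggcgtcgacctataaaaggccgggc

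*Eef2* and *Eif4a1* each hold an E-box in the stretch shown, *Eif4ebp2* and *Eif3a* a GC box. Positions -80 to -1 of *Eif2s1* and *Eif2s2*, the eIF2 subunit genes described below, which are not shown because they run into the annotated gene, hold none of the motifs searched. RefSeq windows that run from 250 bases before to 50 bases after a start were matched for 50 of the 69 genes, which gave 65 windows because some genes have several starts. Searched on both strands, CACGTG stood in 24.6% of these windows, belonging to 14 genes, against 7.15% of all 32851 windows and 11.0% of the 8553 windows of genes tested. The motif CCGGAAGT (ETS) stood in 16.9% of the translation factor windows, against 3.89% of all and 9.60% of those of genes tested. For GGGCGG the shares were 67.7%, 35.7% and 66.5%, and for CCAAT they were 27.7%, 37.4% and 37.8%. These are matches of letters, counted with no test, and several windows of 1 gene overlap.

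The authors deposited counts of unique molecular identifiers (UMIs), random tags that mark each cDNA molecule before PCR, for cDNA primed with oligo-dT. A count therefore stands for a molecule sampled near the 3′ end of a transcript and needs no division by transcript length. The control libraries 1, 2 and 3 held 740936, 931168 and 891531 counts, and the libraries labelled *Piezo1* cKO held 810096, 726378 and 769295. Levels are given as CPM, counts scaled to a common library total with TMM factors in edgeR, always in the order of libraries 1, 2 and 3, and a floor of 3 counts corresponded to 3.22 to 4.13 CPM. The 69 genes together took 1.93%, 2.12% and 1.93% of the control counts and 1.90%, 1.69% and 1.83% of the *Piezo1* cKO counts. Of the 69, 63 had counts in every library, 4 (*Eif1ad8*, *Eif1ad11*, *Eif1ad15* and *Eif1ad19*) had none in any, and 60 passed the filter on low counts. The others that did not pass were *Eif2ak2*, *Eif5a2*, *Eef1akmt3*, *Eif4a3l1* and *Eif4a3l2*, each with at most 10 counts in a library.

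*Piezo1* (chr8:122481698-122551329 on GRCm38, minus strand), the targeted gene, had 11, 5 and 6 counts in the control libraries and 7, 12 and 9 in those labelled *Piezo1* cKO. Its level was 9.25 ± 5.38 CPM (SD, n = 3) in controls and 11.9 ± 3.41 CPM (SD, n = 3) in the other group, and the groups overlapped. The log2 fold change was 0.42 with an SE of 0.46 (edgeR with Benjamini-Hochberg adjustment, adjusted p = 0.791), and an exact two-sided permutation test gave p = 0.500, where 0.1 is the smallest that 3 against 3 allows. The labels could thus not be checked from this gene, and where its counts lie relative to the deleted exons is not known here. The cells did carry myogenic transcripts: *Myod1* had a mean of 1348 CPM, *Des* 532 CPM and *Pax7* 17.6 CPM over the libraries. *Piezo1* cKO library 2 stood apart from the others in muscle differentiation markers, which summed to 2907 CPM there and to 496 to 1651 CPM in the other 5, and values without it are given for the gene group as a whole, for the complexes and for each gene named by rule whose fold change it moved by more than 1.5 times or reversed.

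No translation factor gene was called between the groups. At an adjusted p under 0.05 edgeR called 0 of the 60 tested, beside 67 of all 8551 genes tested (0.784%), limma-voom called 0 of the 60, and DESeq2 called 0 of the 48 for which it gave an adjusted p. The 12 for which it gave none are of low count and include *Eif4ebp2*, *Eef2k*, *Eef2kmt* and *Eif2ak3*. Differences were small and mostly in 1 direction: the fitted log2 fold change of *Piezo1* cKO against control was below 0 for 47 of the 60 and above 0 for 13, with a median of -0.16, where the median of all genes tested was 0.00. At an unadjusted p under 0.05, 13 of the 60 (21.7%) were lower and 0 higher, against 5.78% lower and 6.14% higher among all genes tested. In 15 of the 60 (25.0%) every *Piezo1* cKO library lay below every control library, and in 0 did every one lie above, against 8.31% and 8.20% of all genes tested. In bulk RNA, fewer cells with a transcript and less of it per cell cannot be told apart. The 3 libraries of a group are from separate mice as far as the labels and methods tell, and the p-values measure the spread between them.

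The share of lower genes among all genes depended on their level, and translation factor genes are abundant. Over 20 bins of equal size by mean level, the median log2 fold change of all genes tested went from 0.12 in the lowest bin to -0.1 at 309 CPM and -0.19 in the highest bin, at a median of 625 CPM. Among genes at 100 CPM or more, 43 were translation factors, with a median log2 fold change of -0.17, against -0.07 for all 2546 genes of that level. Of these 43, 14 (32.6%) were lower in every *Piezo1* cKO library, against 16.1% of the 2546, 0 were higher in every one, against 5.11%, and 12 (27.9%) were lower at an unadjusted p under 0.05, against 11.7%. At 300 CPM or more, all 26 translation factor genes had a log2 fold change below 0, as did 557 of all 670 genes of that level, with a median of -0.24 against -0.16 for the 670, and 12 (46.2%) were lower in every *Piezo1* cKO library, against 29.4%. The 17 under 100 CPM had a median of 0.04, beside 0.05 for all genes under 100 CPM. Cyclic loess normalisation, which levels fold changes along abundance, gave the 60 genes a median of -0.05 and all genes -0.00. Of the negative log2 fold changes of the 16 genes drawn by library below, it moved by over 1.5 times those of *Eif2s1* (to -0.27), *Eif2s2* (-0.19), *Eif4e* (-0.14), *Eif4ebp1* (-0.07), *Eif4g2* (-0.02), *Eif5* (-0.21), *Eif5a* (-0.14), *Eif6* (-0.16), *Eif1* (-0.03), *Eef1d* (-0.09) and *Eef2* (-0.09), and it reversed *Eif3b* and *Eef1a1*. Several other genes moved as far, among them *Eif3d* (to -0.13), *Eif4a1* (-0.20), *Eif4e2* (-0.05) and *Eef1g* (-0.00). Abundant genes as a whole thus also had medians below 0, and the difference between translation factors and other genes of their level was not tested.

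**Figure D1:**
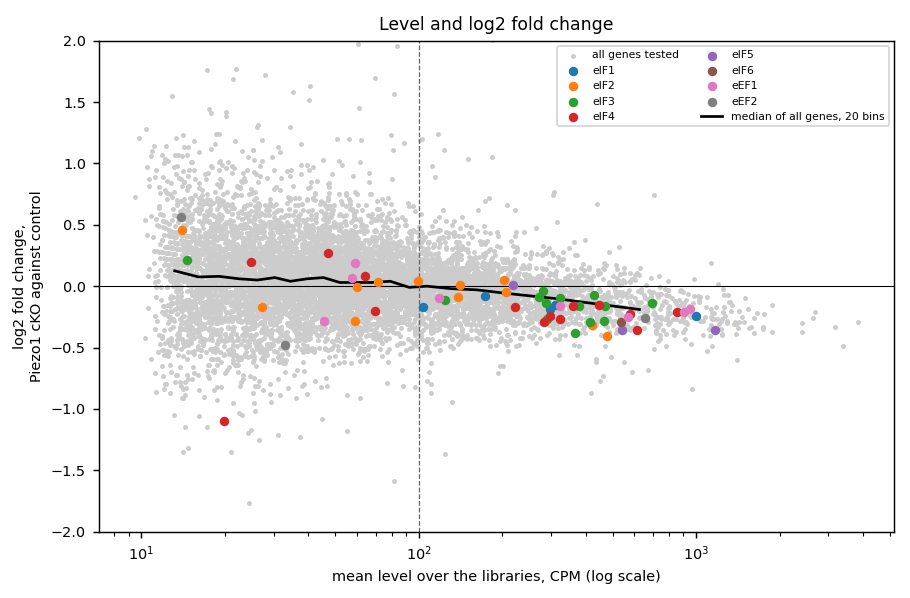
Log2 fold change of *Piezo1* cKO against control (y axis) against the mean level over the 6 libraries in CPM on a log axis (x axis), for all genes tested (grey) and for translation factor genes coloured by complex; the black line is the median of all genes in 20 bins and the dashed line marks 100 CPM. The line declines to -0.19 in the most abundant bin, most coloured points right of 100 CPM lie below 0, and 11 genes beyond 2 on either side of the y axis are not drawn.

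Both subunits of eIF2 in the group, alpha and beta, were lower in every library labelled *Piezo1* cKO. Of all genes at 300 CPM or more, 29.4% were lower in every such library. *Eif2s1* (chr12:78861819-78887010, plus strand), which encodes the alpha subunit that the eIF2 kinases phosphorylate, stood at 560.2, 553 and 519 CPM in the control libraries and at 422, 371 and 434 CPM in the *Piezo1* cKO libraries. The groups did not overlap, and the lowest control exceeded the highest *Piezo1* cKO library by more than the SD of either group, which was 22.1 CPM around a mean of 544 and 33.6 CPM around a mean of 409. Its log2 fold change of -0.41 (SE 0.13, 95% interval -0.68 to -0.15) did not pass the adjusted threshold (edgeR adjusted p = 0.137, DESeq2 adjusted p = 0.0994, and 0.128 to 0.444 with each library left out in turn). *Eif2s2* (chr2:154871410-154892935, minus strand), which encodes the beta subunit, measured 499, 459.7 and 449 CPM in controls and 378, 374 and 374 CPM in *Piezo1* cKO. All 3 *Piezo1* cKO libraries were close together and below all controls, with a log2 fold change of -0.32 (SE 0.13, 95% interval -0.58 to -0.06, edgeR adjusted p = 0.282). With cyclic loess normalisation the log2 fold changes of *Eif2s1* and *Eif2s2* were -0.27 and -0.19.

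The eIF2B and eIF2 kinase genes tested had groups that overlapped, and their difference from the eIF2 subunit genes was not tested. The 5 subunits of eIF2B, the factor that exchanges GDP for GTP on eIF2, had log2 fold changes between -0.09 and 0.05 with a median of 0.01. Their summed level was 699, 892 and 779 CPM in controls and 834, 717 and 817 CPM in *Piezo1* cKO, so the groups overlapped. That of the eIF2 alpha and beta genes was 1059, 1013 and 967 CPM against 800.3, 745 and 808 CPM, without overlap. These genes differ in level: those of eIF2B had means of 99.4 to 207 CPM, *Eif2s1* and *Eif2s2* means of 476 and 422 CPM. Among all genes tested the median log2 fold change declined with level, as given above. Among the kinases, *Eif2ak3*, the sensor of stress in the endoplasmic reticulum, had a log2 fold change of 0.46 (SE 0.40, edgeR adjusted p = 0.704) on 5 to 19 counts per library, and those of *Eif2ak4*, the sensor of amino acid shortage, and *Eif2ak1*, the sensor of haem, were -0.17 and -0.01. *Eif2ak2*, the kinase activated by double-stranded RNA, had 3 to 10 counts and was not tested. *Eif2a* and *Eif2d*, which bind initiator tRNA outside the eIF2 complex, had log2 fold changes of -0.28 and 0.03.

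In eIF3, the scaffold that holds the small subunit complex together, 13 of 14 subunit genes had a log2 fold change below 0, with a median of -0.14, which was -0.03 with cyclic loess normalisation. Of all genes at 100 CPM or more, 1647 of 2546 were below 0. *Eif3a* (chr19:60761117-60790658, minus strand), which encodes the largest subunit, stood at 410.3, 429 and 397 CPM in controls and at 363, 301 and 287 CPM in *Piezo1* cKO. The groups did not overlap, and library 1 of the *Piezo1* cKO group was the nearest to the controls. Its log2 fold change was -0.38 (SE 0.13, 95% interval -0.64 to -0.11, edgeR adjusted p = 0.178). *Eif3b*, the most abundant of the complex, measured 597, 823 and 757 CPM in controls and 825, 486 and 665 CPM in *Piezo1* cKO. These libraries were intermixed, with the highest value in the *Piezo1* cKO group, and the log2 fold change of -0.14 (SE 0.15, 95% interval -0.45 to 0.17, edgeR adjusted p = 0.789) was 0.02 after cyclic loess normalisation and 0.03 without *Piezo1* cKO library 2. *Eif3e* was the other subunit gene without overlap, at 286, 340.1 and 328 CPM against 269, 259.9 and 262 CPM. *Eif3c* and *Eif3d* were lower at an unadjusted p under 0.05, with log2 fold changes of -0.29 and -0.28, but their groups overlapped. The remaining 9 ranged from -0.16 (*Eif3g* and *Eif3l*) to 0.21 (*Eif3j2*, at 6 to 16 counts per library), and *Eif3j1* and *Eif3j2* may share reads because they are near copies of each other.

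The eIF4 group held the largest fold change among the 60 genes, in *Eif4ebp2* (chr10:61428491-61452661, minus strand), which encodes an inhibitor of eIF4E. It had 17, 32 and 20 counts in controls and 14, 5 and 11 in *Piezo1* cKO, or 23.8, 34.8 and 23.0 CPM against 17.3, 6.43 and 14.2 CPM. Every *Piezo1* cKO library lay below every control. The log2 fold change was -1.10 (SE 0.34, 95% interval -1.79 to -0.42, edgeR adjusted p = 0.117). It rested on few counts: without *Piezo1* cKO library 1 it was -1.39 with an edgeR adjusted p of 0.0484, without *Piezo1* cKO library 2 it was -0.80 with 0.606, and the adjusted p ranged from 0.0484 to 0.606 over the alternatives that gave one. *Eif4ebp1*, the paralogue with more counts, measured 636, 582 and 652 CPM in controls and 596, 479 and 519 CPM in *Piezo1* cKO. Its groups overlapped in *Piezo1* cKO library 1, and its log2 fold change was -0.23 (SE 0.14, 95% interval -0.50 to 0.04, edgeR adjusted p = 0.513). The third gene of the kind, *Eif4enif1*, which encodes the transporter 4E-T, had a log2 fold change of 0.27.

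*Eif4e* itself, the cap-binding protein, stood at 331, 340.1 and 296 CPM in controls and at 257, 266 and 297 CPM in *Piezo1* cKO. Control library 3 and *Piezo1* cKO library 3 were almost equal, and the log2 fold change was -0.24 (SE 0.13, 95% interval -0.50 to 0.03, edgeR adjusted p = 0.486). *Eif4g2*, which encodes a scaffold without the eIF4E site and was the most abundant of the eIF4 group, measured 924, 928 and 901 CPM in controls and 878, 665 and 829 CPM in *Piezo1* cKO. The groups did not overlap, although the *Piezo1* cKO libraries spread more widely (SD 111 CPM against 14.8 CPM), and the log2 fold change of -0.21 (SE 0.14, 95% interval -0.50 to 0.07, edgeR adjusted p = 0.576) was -0.11 without *Piezo1* cKO library 2. *Eif4e2*, a cap-binding protein of translational repression, and *Eif4a3*, the helicase of the exon junction complex, also did not overlap, with log2 fold changes of -0.16 and -0.27. The helicase gene *Eif4a1* (-0.36) and the scaffold gene *Eif4g1* (-0.29) were lower at an unadjusted p under 0.05, with groups that overlapped. Above 0 were *Eif4enif1*, *Eif4e3* (0.20) and *Eif4a2* (0.08), each under 100 CPM.

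Among the factors that act around subunit joining, *Eif5* (chr12:111538016-111546752, plus strand), the activator of GTP hydrolysis by eIF2, stood at 619, 596 and 606 CPM in controls and at 563, 407 and 452 CPM in *Piezo1* cKO. The controls were close to each other (SD 11.8 CPM) and above all *Piezo1* cKO libraries, of which library 1 was the highest. The log2 fold change was -0.36 (SE 0.14, 95% interval -0.63 to -0.08, edgeR adjusted p = 0.237). *Eif5a*, which encodes the hypusine-bearing factor that helps ribosomes past difficult peptide bonds, had the highest level of the 69 genes, at 1476, 1283 and 1194 CPM in controls and 1231, 798 and 1044 CPM in *Piezo1* cKO. *Piezo1* cKO library 1 exceeded control library 3, so the groups overlapped, and the log2 fold change of -0.36 (SE 0.15, 95% interval -0.66 to -0.06, edgeR adjusted p = 0.286) was -0.21 without *Piezo1* cKO library 2. *Eif6*, which keeps the large ribosomal subunit from joining too early, measured 581, 653 and 538 CPM against 573, 356 and 519 CPM. *Piezo1* cKO library 2 was far below the other 5 libraries, and the log2 fold change of -0.29 (SE 0.14, 95% interval -0.57 to -0.01, edgeR adjusted p = 0.406) was -0.12 without it. *Eif5b*, the GTPase of subunit joining, had a log2 fold change of 0.01.

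In the eIF1 group, eIF1 and eIF1A guard the choice of the start codon. Of all 2546 genes at 100 CPM or more, 1647 had a log2 fold change below 0. All 5 genes tested of the eIF1 group did, from -0.24 to -0.08 (*Eif1ad*). *Eif1* was the most abundant, at 1106, 1076 and 1082 CPM in controls and 979, 789 and 989 CPM in *Piezo1* cKO. The controls were close to each other (SD 16.0 CPM) and all above the *Piezo1* cKO libraries, with a log2 fold change of -0.24 (SE 0.14, 95% interval -0.53 to 0.04, edgeR adjusted p = 0.509) that was -0.15 without *Piezo1* cKO library 2. *Eif1a* and *Eif1b* also did not overlap, with log2 fold changes of -0.15 and -0.17.

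**Figure D2:**
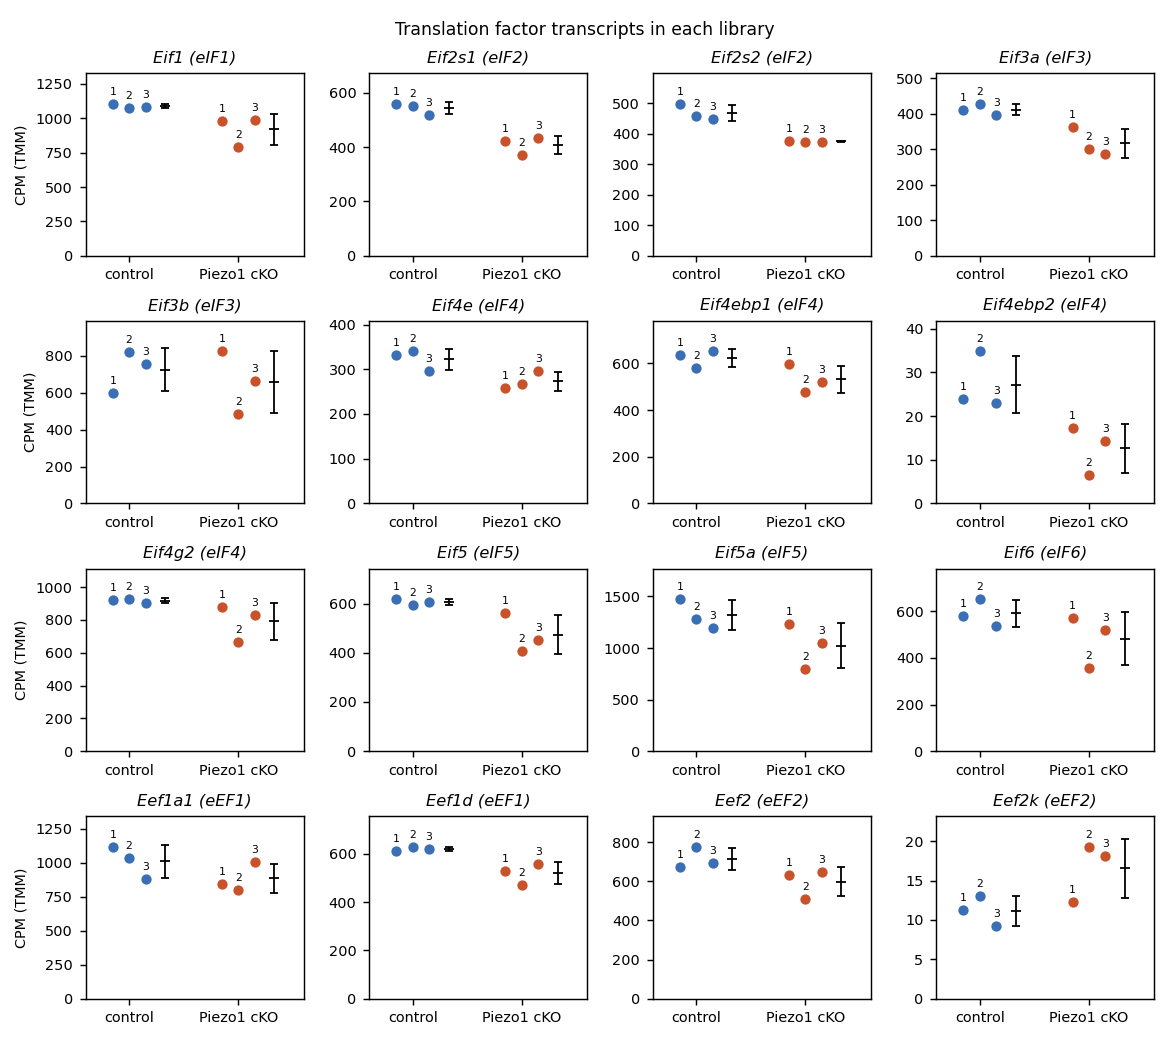
Level in each library, in TMM-scaled CPM (y axis of each panel, starting at 0), of 16 translation factor genes in control (blue) and *Piezo1* cKO (orange) libraries; numbers give the library and black bars the mean ± SD (n = 3). The groups are apart in *Eif1*, *Eif2s1*, *Eif2s2*, *Eif3a*, *Eif4ebp2*, *Eif4g2*, *Eif5*, *Eef1d* and *Eef2*, and *Piezo1* cKO library 2 has the lowest value in most panels.

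For elongation, *Eef1a1* measured 1119, 1035 and 880.0 CPM in controls and 847, 803 and 1008 CPM in *Piezo1* cKO, with overlapping groups and a log2 fold change of -0.19 (SE 0.14, 95% interval -0.48 to 0.10, edgeR adjusted p = 0.650). It was -0.12 without *Piezo1* cKO library 2 and 0.03 with cyclic loess normalisation for *Eef1a1*, whose level is uncertain because the genome holds many near-identical copies of it and the sources used here do not say how reads with several matches were counted. *Eef1d*, a subunit of the exchange factor for eEF1A, stood at 611, 629 and 618 CPM in controls and at 529.8, 469.7 and 559 CPM in *Piezo1* cKO. The groups did not overlap, and the log2 fold change was -0.25 (SE 0.14, 95% interval -0.52 to 0.02, edgeR adjusted p = 0.449). Of the other exchange factor subunits, *Eef1b2* had groups that did not overlap (log2 fold change -0.16) and *Eef1g* groups that did (-0.21). *Eef2*, the translocase, measured 674, 777 and 691 CPM in controls and 634, 511 and 647 CPM in *Piezo1* cKO, with no overlap and a log2 fold change of -0.26 (SE 0.14, 95% interval -0.53 to 0.02, edgeR adjusted p = 0.451), or -0.16 without *Piezo1* cKO library 2.

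Of the genes that modify the elongation factors, *Eef1akmt1*, an eEF1A methyltransferase, was the most abundant at a mean of 118 CPM. *Eef2k*, the kinase that inhibits eEF2, had 8 to 15 counts per library, or 11.2, 13.0 and 9.20 CPM in controls and 12.3, 19.3 and 18.1 CPM in *Piezo1* cKO. Control library 2 exceeded *Piezo1* cKO library 1, and the log2 fold change of 0.56, the highest of the 60, had an SE of 0.39 and a 95% interval of -0.22 to 1.33 (edgeR adjusted p = 0.609). *Eef2kmt*, the methyltransferase of eEF2, had a log2 fold change of -0.48 (SE 0.27, edgeR adjusted p = 0.475). The 4 eEF1A methyltransferase genes tested lay between -0.28 and 0.19.

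**Figure D3:**
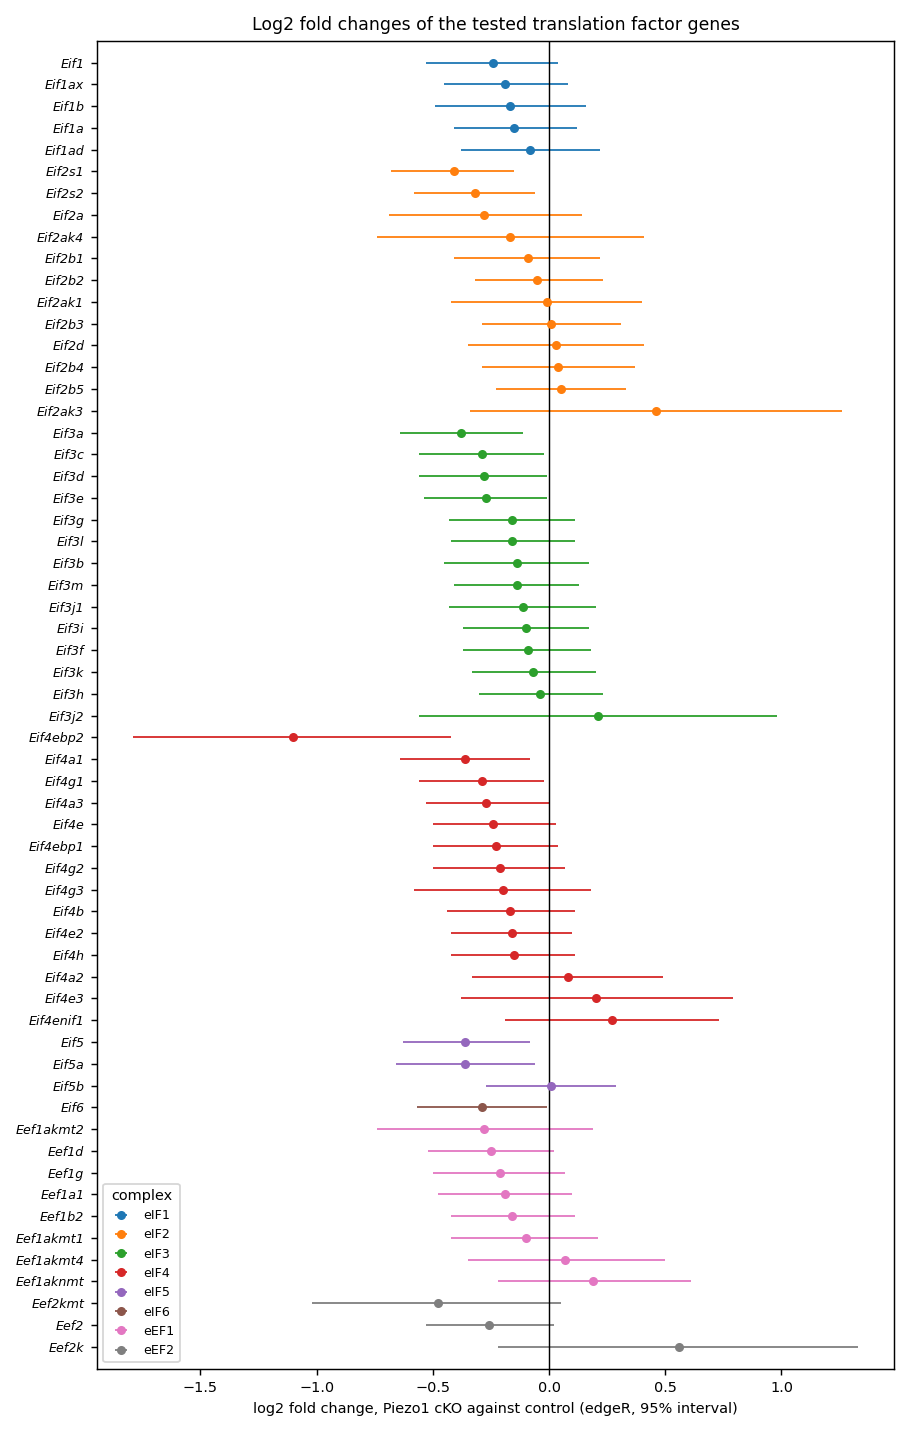
Log2 fold change of *Piezo1* cKO against control (x axis) with its 95% interval from edgeR (bars) for the 60 translation factor genes tested, grouped and coloured by complex. Of the 60 points 47 lie left of 0, between -1.10 (*Eif4ebp2*) and 0.56 (*Eef2k*), and no gene passed the adjusted threshold.

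Summed over a complex, the abundant members decide the level. The summed level of the 69 genes was 20074, 21455 and 19759.6 CPM in controls and 19019.5, 15750.3 and 18174 CPM in *Piezo1* cKO. It did not overlap between the groups, and *Piezo1* cKO library 2 was the lowest. Sums of all 670 genes at 300 CPM or more did not overlap either. They were 445599, 418720.4 and 433195 CPM in controls and 403110.2, 338496 and 402097 CPM in *Piezo1* cKO. By complex the groups did not overlap for eIF1, eIF2, eIF4, eEF1 and eEF2, by a narrow margin for eEF1, where the lowest control held 3039 CPM and the highest *Piezo1* cKO library 3026 CPM. They overlapped for eIF3, at 4608, 5619.5 and 5058 CPM against 4905, 4023 and 4616 CPM, and for eIF5 and eIF6. The log2 ratio of the mean sums of the 8 groups of factors lay between -0.31 and -0.17, and between -0.19 and -0.10 without *Piezo1* cKO library 2. Library 2 was the extreme of both groups: *Piezo1* cKO library 2 had the lowest level of 31 of the 60 genes tested and control library 2 the highest of 33.

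Leaving out *Piezo1* cKO library 2, the median log2 fold change of the 61 translation factor genes that then passed the filter was -0.12, and 6 of them (9.84%) were lower at an unadjusted p under 0.05, beside 3.53% of all genes and 5.89% of those at 100 CPM or more. In the same 5 libraries, 16 of the 60 (26.7%) were lower without overlap, beside 11.9% of all genes tested. Without control library 2 the median was -0.10, with 17 of the 60 (28.3%) lower without overlap, beside 12.7% of all genes, and 4 (6.67%) higher, beside 12.5%. At an unadjusted p under 0.05, 7 were then lower (11.7%) and 1 higher, beside 3.88% and 4.91% of all genes and, lower, 7.54% of those at 100 CPM or more. Scaling by total counts, with all libraries, gave the 60 genes a median of -0.09 and all genes 0.07, with 7 of the 60 (11.7%) lower at an unadjusted p under 0.05, beside 3.32% lower and 8.79% higher among all genes. At 100 CPM or more and without *Piezo1* cKO library 2, 14 of 43 (32.6%) were lower without overlap, beside 18.1% of all genes of that level. Without control library 2, 16 of the 43 (37.2%) were, beside 23.0%.

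Markers of cell state moved with the same libraries. All 16 muscle differentiation markers tested, of 24 in the table, had log2 fold changes above 0 (median 1.96), and edgeR called *Tnni2* (2.16, adjusted p = 0.00459), *Smyd1* (1.77, adjusted p = 0.0427) and *Actn3* (1.20, adjusted p = 1.0e-05) higher. DESeq2 called 2 of the 10 markers for which it gave an adjusted p and limma-voom 12 of the 16. Among all genes DESeq2 called 27 and limma-voom 72. In edgeR 10 of the 16 markers were higher at an unadjusted p under 0.05, beside 6.14% of all genes tested. The 24 markers summed to 943, 496 and 781 CPM in controls and to 1210.3, 2907 and 1651 CPM in *Piezo1* cKO, with *Tnnt2* the most abundant at a mean of 241 CPM. The library with the highest sum of these markers was the one with the lowest sum of translation factors, and the control with the lowest sum of these markers had the highest sum of translation factors. The 17 cell cycle markers, of which edgeR called 0 (7, or 41.2%, lower at an unadjusted p under 0.05, beside 5.78% of all genes tested and 11.7% of those at 100 CPM or more, and 0 called by DESeq2 or limma-voom), had a median log2 fold change of -0.29 and summed to 4269, 4690.4 and 4326 CPM in controls and 4219, 3169 and 3722 CPM in *Piezo1* cKO, *Rrm2* being the most abundant at 1269 CPM. The part of either in the lower translation factor levels was not tested.

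**Figure D4:**
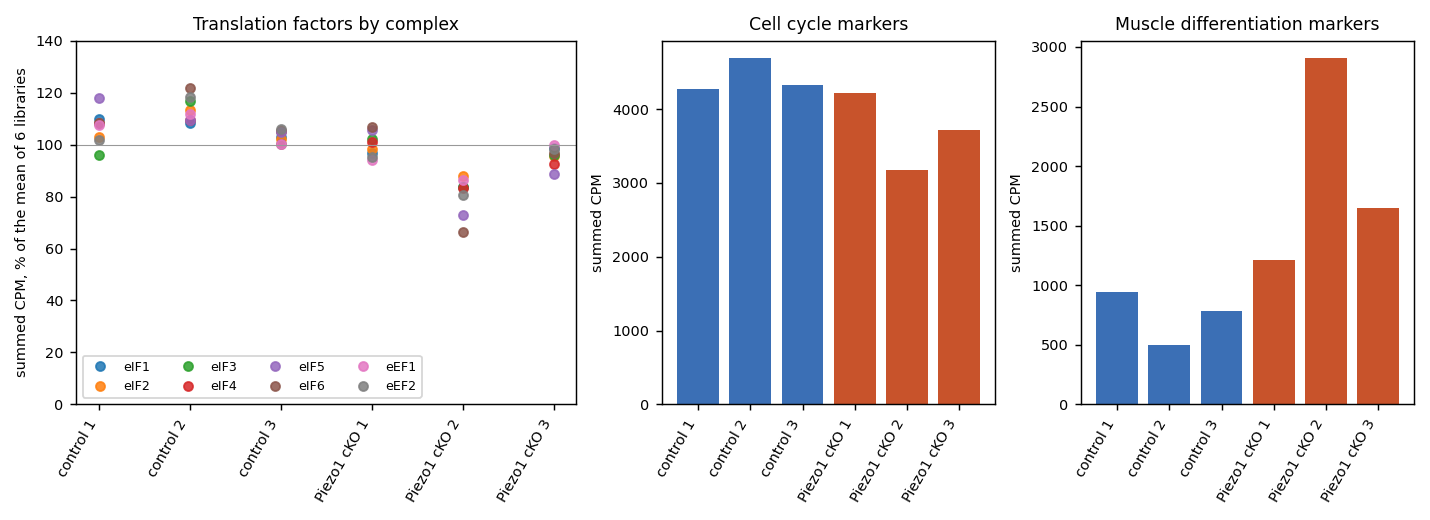
Left, summed level of the genes of each translation factor complex in each library, as a percent of that complex's mean over the 6 libraries (points, y axis from 0); middle and right, summed CPM of the cell cycle and muscle differentiation markers in the same libraries (bars, control blue, *Piezo1* cKO orange). *Piezo1* cKO library 2 has the lowest point of every complex, the lowest cell cycle sum (3169 CPM) and the highest differentiation sum (2907 CPM).

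Among 10 myogenic cell markers edgeR called *Ncam1* higher (log2 fold change 0.62, adjusted p = 0.011), as did limma-voom (0.0448) but not DESeq2 (0.0911), and their sums of 4767, 3913 and 4537 CPM in controls overlapped with 4655, 3683 and 4419 CPM in *Piezo1* cKO. Markers of fibroblasts and fibro-adipogenic cells, which the sort against Sca1 should remove, summed to 286, 385 and 458 CPM against 336, 356 and 323 CPM. *Col3a1* and *Cd34* were the most abundant of them at means of 223 and 81.5 CPM, and the others had means of at most 18.8 CPM (*Dcn*). Whether the *Col3a1* and *Cd34* counts came from such cells was not tested. *Pi16* was at 0 in every library, and edgeR called *Dcn* lower (log2 fold change -2.17, adjusted p = 0.000391). For *Dcn* DESeq2 gave no adjusted p and limma-voom 0.00967. The other 3 tested were not called by edgeR and went both ways, with log2 fold changes of -1.59 for *Cd34*, which DESeq2 (adjusted p = 8.24e-04) and limma-voom (0.00502) called lower, 0.41 for *Col3a1* and 0.67 for *Dpep1*, and *Ly6a*, the gene of Sca1, had 2, 2 and 3 counts in controls and 5, 8 and 9 in *Piezo1* cKO. Endothelial, immune and glial markers summed to at most 27.2 CPM in a library, and in each of these lists the groups overlapped. Smooth muscle and pericyte markers summed to 43.4, 30.4 and 42.6 CPM in controls and to 53.1, 56.6 and 81.3 CPM in *Piezo1* cKO, higher in every *Piezo1* cKO library. Most of this was *Cspg4*, which myogenic cells can also express (log2 fold change 0.76, SE 0.25, edgeR adjusted p = 0.143). The part of these cells in the translation factor levels was not tested.

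Other genes of the pathway showed no call either. Of 29 other translation factor genes tested, such as release factors and poly(A)-binding proteins, edgeR called 0, and 22 had a log2 fold change below 0 with a median of -0.13. *Pabpc1*, the main poly(A)-binding protein of the cytoplasm, had -0.15 (SE 0.14, edgeR adjusted p = 0.721). Of 34 genes of mTORC1 and MNK signalling, which act on the 4E-BP proteins and eIF4E, edgeR called 0, with a median of 0.07. In 8 of these 34 all *Piezo1* cKO libraries lay above all controls, beside 8.20% of all genes tested, and in 2 below. *Mtor* measured 25.2, 21.7 and 23.0 CPM in controls and 23.5, 37.3 and 31.0 CPM in *Piezo1* cKO (log2 fold change 0.39, SE 0.29, edgeR adjusted p = 0.630), and *Rps6kb1*, the S6 kinase gene, had -0.01 (SE 0.18, adjusted p = 0.987). Of 16 genes of the response to eIF2 phosphorylation edgeR called 0, with a median of 0.02, and *Atf4*, the transcription factor whose translation rises in that response, had 319, 409 and 277 CPM in controls and 291, 239 and 274 CPM in *Piezo1* cKO (log2 fold change -0.32, SE 0.14, edgeR adjusted p = 0.309). At an unadjusted p under 0.05, where 5.78% of all genes tested were lower and 6.14% higher, 2 of the other translation factors were lower and 1 higher, 1 of the mTORC1 and MNK genes was lower and 4 higher, and 2 of the eIF2 phosphorylation genes were lower and 1 higher. DESeq2, where it gave an adjusted p, and limma-voom called 0 in each of these lists.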

How the data were processed

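MuSCs sorted as VCAM1+, CD31-, CD45- and Sca1- were cultured for 3 days. The authors reverse transcribed 500 pg of RNA per library with barcoded oligo-dT primers, ran 12 cycles of PCR, mapped reads with STAR 2.7.9a to GRCm38, assigned them with featureCounts 2.0.1 and counted UMIs with UMI-tools 1.1.1. The authors deposited the raw UMI counts, 1 column per library. Strand and multi-mapping settings are not given in the sources used here.

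Counts were analysed in R 4.3.3 with edgeR 4.0.16 (TMM, filterByExpr with a minimum count of 10, robust quasi-likelihood F test, Benjamini-Hochberg adjustment over 8551 genes, threshold 0.05). The test was checked on simulated data. The alternatives were DESeq2 1.42.0, limma-voom in limma 3.58.1, other scalings (DESeq2 size factors, total counts, cyclic loess with 3 iterations), other filters, thinning, a replicate block, an adjusted p under 0.1 and each library left out. Those by level (100 and 300 CPM) and the counts without overlap or at an unadjusted p were added after the data were seen. *Piezo1* was kept in its fit regardless of the filter.

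The genes and lists were chosen with earlier results of these data known. Named with values in every library were any called genes, the most abundant gene and that of the smallest p in each complex, those without overlap at a log2 fold change of 0.3 or more, and *Eif2s1*, *Eif4e*, *Eif4ebp1*, *Eif4ebp2*, *Eif5a*, *Eef1a1*, *Eef2* and *Eef2k* for their roles. Others in the text, among them *Eif3e*, were named after their values were seen. Coordinates were matched by symbol to GENCODE M21 for 62 of the 69 genes. Between libraries of the same replicate number, deviations from the group means correlated at -0.143, -0.203 and 0.0121. These correlations cannot show whether such libraries were prepared together. The binomial intervals of shares and the floors cover counting error only, whereas the intervals of fold changes are from the edgeR fit and include the spread between libraries.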

Additional observations from a re-analysis of the deposited data

How the results depend on the processing

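No translation factor gene was called under the alternatives that used all 6 libraries. Leaving out each library gave 0 to 1 calls, the 1 being *Eif4ebp2*. Calls among all genes, 67 in the analysis as reported, numbered 27 with DESeq2, 32 with cyclic loess, 129 with no filter, 124 at an adjusted p under 0.1 and 6 to 155 with each library left out (6 without *Piezo1* cKO library 2). With the replicate block there were 46 calls among all genes and 0 among translation factors, whose median log2 fold change stayed -0.16. That median was -0.05 with cyclic loess, -0.09 with total counts and -0.20 to -0.10 with each library left out. Direction reversed for *Eef1a1* (0.03) and *Eif3b* (0.02) with cyclic loess and for *Eif3b* without *Piezo1* cKO library 2, where its leave-one-out range was -0.33 to 0.03. In 13 of 15 alternatives every named gene with a value kept its direction (14 of the 16 had one under the filter of 10 counts in every library, which left out *Eef2k* and *Eif4ebp2*). Genes at an unadjusted p under 0.05, 13 as reported, numbered 7 with total counts, 4 with cyclic loess, 8 without control library 2, and 6 without *Piezo1* cKO library 2 or 3. With cyclic loess the 4, all lower, made up 6.67%, close to the 4.88% of all genes and 5.85% of those at 100 CPM or more. Without *Piezo1* cKO library 3 the 6, all lower, made up 9.84%, beside 4.01% of all genes and 8.41% of those at 100 CPM or more. Genes lower without overlap, 15 as reported, numbered 10 with total counts and 14 with DESeq2 size factors. The share of all genes under these scalings is not given here, so these counts have no background to be read against. Without control library 1, control library 3 and *Piezo1* cKO library 1, such genes numbered 27, 25 and 25 (45.0%, 41.7% and 41.7%), beside 13.8%, 14.4% and 15.8% of all genes. At 100 CPM or more their shares were 53.5%, 53.5% and 51.2%, beside 22.7%, 23.4% and 28.5% of all genes of that level. In the same order 0, 1 and 3 of the 60 were higher without overlap, beside 13.7%, 14.1% and 14.5% of all genes. These counts rest on fewer libraries, which makes overlap rarer. Apart from that, the cause of these changes was not tested. At 726378 to 931168 counts per library, genes near 10 counts, such as *Eef2k* and *Eif2ak3*, have intervals too wide to show differences of the size seen in the abundant factors.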

Other observations

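Within a pair of paralogues, the share of counts that fell on the less abundant copy is not affected by library scaling. *Eif4a2*, the eIF4A helicase typical of differentiated tissue, took 5.37%, 12.1% and 7.95% of the *Eif4a1* and *Eif4a2* counts in controls and 10.1%, 13.0% and 10.5% in *Piezo1* cKO, so the groups overlapped in control library 2. The exact 95% binomial intervals were 3.70% to 7.50%, 9.66% to 14.8% and 5.94% to 10.4% in control libraries 1, 2 and 3. In *Piezo1* cKO libraries 1, 2 and 3 they were 7.78% to 12.9%, 9.84% to 16.7% and 7.81% to 13.7%. Those of control libraries 2 and 3 overlapped with each of these. *Eif5a2*, the second hypusine-bearing factor, took 0.566%, 0.756% and 0.765% of the *Eif5a* and *Eif5a2* counts in controls and 0.993%, 1.43% and 1.22% in *Piezo1* cKO. The groups did not overlap, but the share rests on 6 to 10 *Eif5a2* counts per library and the exact intervals of all 6 libraries overlap, from 0.208% to 1.23% in control library 1 and from 0.477% to 1.82% in *Piezo1* cKO library 1. The *Eif5a2* level was 8.40, 9.78 and 9.20 CPM in controls and 12.3, 11.6 and 12.9 CPM in *Piezo1* cKO, higher in 3 of 3 libraries, in a gene that did not pass the filter and was not tested. Both shares were chosen for their genes' roles and carry no test.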
